A study of Mus musculus with 52 samples.

Results

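Solute carriers are the membrane transporters whose gene symbols start with Slc, and 132 of them were found at an average of 10 CPM or more in single mouse bone marrow cells. CPM is the number of reads of a gene divided by the reads of its cell, per 1000000. The members were the protein-coding genes with a symbol of Slc and a digit whose mean reached that level over the cells kept, that is those with no fewer than 50000 reads and 1000 detected genes and with no more than 20% of reads from mitochondrial genes. Slc2a1, Slc2a3, Slc4a1, Slc11a2, Slc25a37 and Slc40a1 were left out by name. Of 370 protein-coding genes with such a symbol, 6 were left out in this way, 132 reached the level and 232 did not. Of those 232, 102 had at least 1 read in a kept cell and 130 had none. The mean level chose the members, so their levels are a description and carry no test. Just inside the limit were Slc25a33 at 10.2 CPM and Slc22a21 at 10.5 CPM, and just outside it were Slc17a5 at 9.93 CPM and Slc8b1 at 9.47 CPM.

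The study sequenced 52 single cells by Smart-seq2, a plate method that copies whole transcripts of the cell in each well. All cells carry the label primed HSCs, for haematopoietic stem cells, and come from bone marrow of C57BL/6 mice aged 6 to 8 weeks with the genotype Cd4-cre;R26Tdtomato. In such mice a Cre recombinase driven by the Cd4 gene can switch on a red fluorescent reporter, and every cell here shares that genotype. There was 1 group with no control, the labels name no animal, and what primed means is not given in the sources used here, so the cells form 1 sample, which gives no p-values and no standard errors. The spread after ± is the SD (standard deviation) between cells, and n is 49 for all kept cells unless a class of cells is named.

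Solute carriers move small molecules across membranes in exchange with, or together with, ions or other substrates, or down a gradient. The family is grouped by sequence into numbered subfamilies, many of which share a kind of substrate. Members at the plasma membrane bring in amino acids, sugars, phosphate, nucleosides and vitamins. The SLC25 subfamily carries metabolites across the inner mitochondrial membrane, and the SLC35 subfamily is mostly found in the endoplasmic reticulum and Golgi, where it supplies nucleotide sugars for glycosylation. In cells that make haemoglobin, carriers for iron, glycine and haem intermediates are known to serve haem synthesis. The subfamily number was used to sort the members into 8 substrate classes, and a few members with these symbols are no transporters: Slc9a3r1 encodes a scaffold protein, Slc4a1ap a nuclear protein named for its binding to a carrier, and Slc7a6os is named only for its place opposite Slc7a6.

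The filter kept 49 cells with 85519 to 12446479 reads each, and left out cells 5, 10 and 12. A cell was called Cd34-class with Cd34, a surface marker of stem and progenitor cells, at 10 CPM or more and Klf1, a transcription factor of red cell precursors, below 200 CPM. It was called Klf1-class with Klf1 at 200 CPM or more and Cd34 below 10 CPM. This gave 13 Cd34-class and 33 Klf1-class cells, and left cell 2 with both genes and cells 9 and 34 with neither. The labelled stem cell identity was checked on fixed marker lists, leaving Cd34 and Klf1 out of the sums because they define the classes. The other 9 stem and progenitor markers summed to 378 to 1859.9 CPM (median 1391) in Cd34-class cells and to 0 to 1009.9 CPM (median 34.8) in Klf1-class cells. The other 9 erythroid markers ran from 629.9 to 8942 CPM (median 2048) in Cd34-class and from 2489.9 to 20457 CPM (median 13748) in Klf1-class cells. The Klf1-class cells, which carry the same label, thus had the lower stem and progenitor sum and the higher erythroid sum at the median. Of 12 mitosis genes, 10 were at least 2-fold higher in Klf1-class cells, with a median sum of 2663 against 427 CPM. Of 10 neutrophil and monocyte genes, 6 reached 10 CPM and 5 of those were at least 2-fold higher in Cd34-class cells. Their median sum was 871 against 1.75 CPM, with Elane and Ly6c2 at 0 in both classes. Of all 8625 protein-coding genes with a mean of 10 CPM or more, 19.7% were at least 2-fold higher in Klf1-class and 21.9% in Cd34-class cells. The 8 B lineage genes summed to 2.62 to 581.7 CPM (median 12.5) in Cd34-class and to 0 to 799.5 CPM (median 2.74) in Klf1-class cells. Pax5 was at 0 in both. Cd79a and Igkc averaged 50.1 and 77.3 CPM over the 49 cells, but at most 7.82 CPM in either class. Most of their reads per total thus lay in cells 2, 9 or 34. The classes also differed in depth, with a median of 835416 reads and 5572 genes in Cd34-class and 2887970 reads and 7472 genes in Klf1-class cells. The part that depth, the cell cycle or these markers play in the differences below was not tested.

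Cells 9 and 34 stood apart. Their members summed to 5402 and 5485 CPM, against 7752 to 14281 CPM in the other kept cells, and 17 and 14 members reached 10 CPM there. Cell 34 had 39230 CPM of Lyz2, a lysozyme of myeloid cells, and no read of Kit. Cells 6 and 13, both Klf1-class, had a Pearson correlation of 0.904 over the members' log2(CPM + 1) values, against 0.634 for the next pair and a median of 0.344 over all pairs. Whether those wells hold related RNA was not tested. Counts of members are therefore also given without cells 9, 13, 23 and 34. Cell 23 was put with these when the alternatives were listed.

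Together the members took 10847 ± 1655 CPM of a cell's reads. Of the 132, 60 reached 10 CPM in at least 50% of cells, 27 had a mean of 100 CPM or more, and 4 had a read in all 49 cells: Slc25a5, Slc25a3, Slc39a1 and Slc39a2. For the order of levels between genes, CPM was divided by kb of exon, since a longer transcript gives more reads. On that scale Slc25a5, which exchanges ADP for ATP across the inner mitochondrial membrane (chromosome X, 36795651 to 36798807, GRCm38), was highest at 899 CPM per kb. Slc25a3, which brings phosphate into mitochondria, followed at 165 CPM per kb, the haem transporter Slc48a1 at 112, Slc35a4 at 110.2 and the citrate carrier Slc25a1 at 99.7 CPM per kb. Slc25a5 and Slc25a3 differed by more than the SD of either, while each later pair of neighbours in this order differed by less than the SD over cells. The least variable members over cells were Slc25a5 (coefficient of variation 0.381), Slc25a3 (0.426) and Slc3a2 (0.644). The most variable were Slc27a4 (4.57), Slc7a8 (4.50) and Slc6a15 (4.39), in each of which 1 cell held over 50% of the summed CPM: cell 27 held 53.7%, cell 34 held 57.9% and cell 32 held 52.7%.

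**Figure D1:**
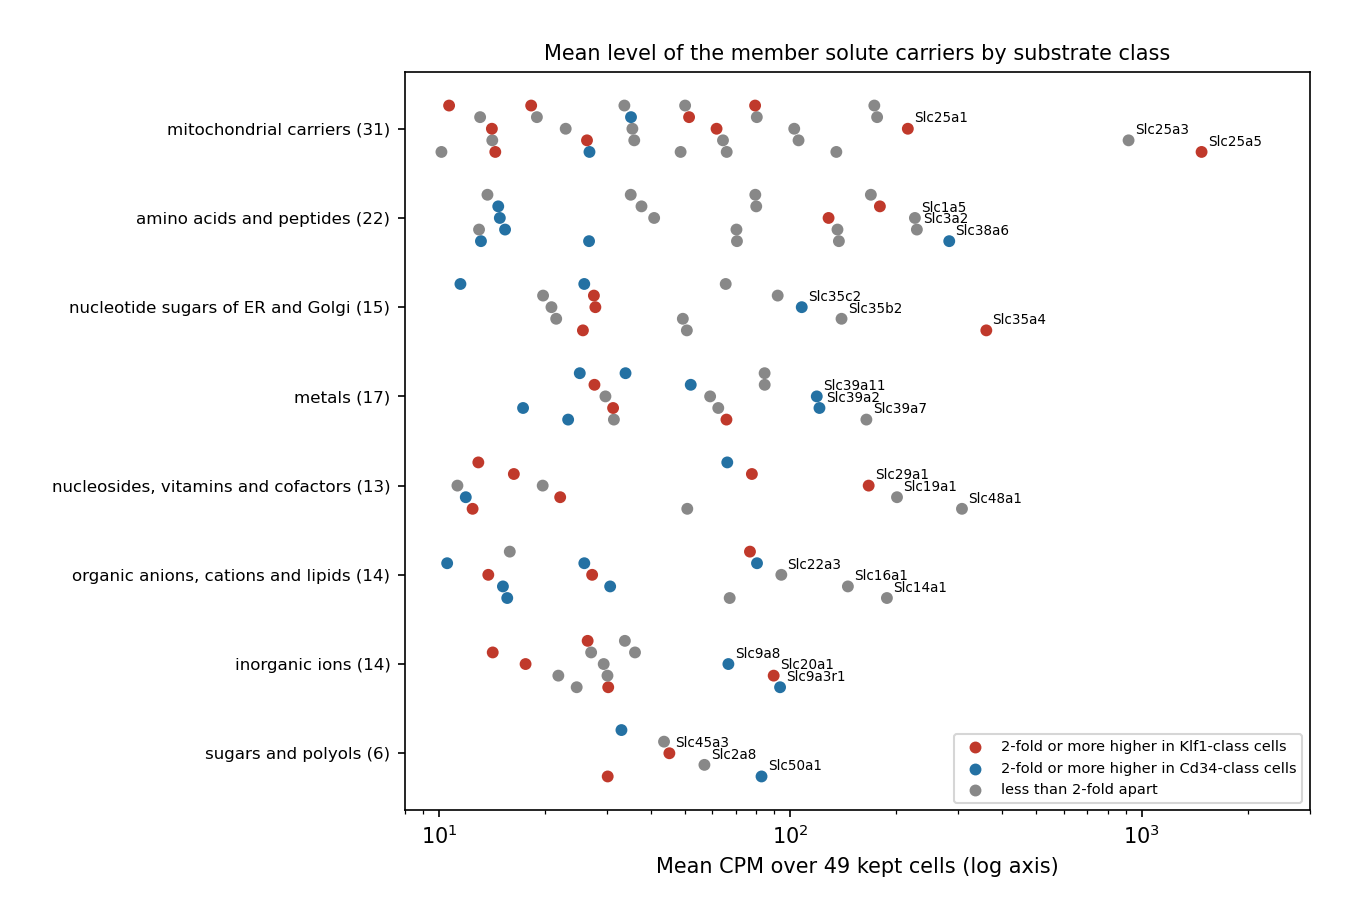
Each point is 1 of the 132 members in its substrate class (number of members in parentheses), placed by its mean CPM over 49 kept cells on a log axis, with points spread vertically only to separate them; the axis is not corrected for transcript length. Red and blue mark members at least 2-fold higher in Klf1-class or Cd34-class cells; Slc25a5 at 1479 CPM and Slc25a3 at 917 CPM stand to the right of the other 130 members.

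The 31 mitochondrial carriers made up 38.1% of the members' CPM, with a sum of 4136 ± 1029.8 CPM per cell. Their sum was 3152 ± 1035 CPM in Cd34-class and 4633 ± 575 CPM in Klf1-class cells, a ratio of 1.47. Slc25a5 had from 123 to 1332 CPM (median 810.4) in Cd34-class and from 870.1 to 2499 CPM (median 1790.0) in Klf1-class cells. The ranges overlapped, but the Klf1-class median was above the highest Cd34-class cell, and the log2 ratio of the class means was 1.14. With size factors in place of total reads, this was 0.94, just under 2-fold, and that of Slc25a1 0.96. Slc25a4, the other adenine nucleotide carrier among the members, had a log2 ratio of 0.13, and Slc25a3 one of 0.20. Slc25a1, which exports citrate to the cytosol, had 118 ± 128 CPM in Cd34-class and 269 ± 164 CPM in Klf1-class cells. Slc25a39, which carries glutathione into mitochondria, was found at 176 ± 126 CPM, with a log2 ratio of 0.43. Slc25a17, whose product lies in the peroxisome membrane and not in mitochondria, was counted here by its subfamily and had 105 ± 83.6 CPM.

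The 22 members of the amino acid and peptide class summed to 2014 ± 583 CPM. Slc38a6, of the family of sodium-coupled neutral amino acid transporters, had 283 ± 226 CPM (36.4 CPM per kb). It ran from 32.4 to 1238 CPM (median 417) in Cd34-class and from 86.9 to 617 CPM (median 188) in Klf1-class cells, so each of the 46 cells of both classes held it above 10 CPM, at a higher mean in the Cd34-class. Slc3a2, the heavy chain that brings several SLC7 light chains to the cell surface, had 229 ± 148 CPM and a log2 ratio of -0.013. Of its light chains, Slc7a5 had 35.1 ± 37.4 CPM and a log2 ratio of 0.079 (0.70 without cell 31), while Slc7a6 had 42.4 ± 55.8 CPM in Cd34-class and 5.86 ± 15.5 CPM in Klf1-class cells. Slc1a5, a glutamine transporter, had 226 ± 168 CPM and a log2 ratio of -0.45. Slc38a1 and Slc38a2, which take up glutamine and other small neutral amino acids, had 136 ± 129 CPM and 137 ± 101 CPM. Slc38a9, which takes part in arginine sensing at the lysosome, had 70.4 ± 179 CPM, of which cell 34, outside both classes, held 34.8% at 1203 CPM. Without cell 34 its mean was 46.8 CPM.

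The 17 metal transporters summed to 1032 ± 483 CPM, with 1394 ± 655 CPM in Cd34-class and 852 ± 261 CPM in Klf1-class cells. Slc39a7, which releases zinc from the endoplasmic reticulum, had 164 ± 165 CPM and a log2 ratio of -0.44. Of its exon bases, 80.7% also lie in the exons of the transcript Gm20427 on the same strand. Gm20427 has no entry in the deposited counts, so whether reads were divided between them cannot be told. Slc39a11, a zinc transporter, ran from 0 to 1214 CPM (median 282) in Cd34-class and from 0 to 191 CPM (median 21.5) in Klf1-class cells. Slc39a2, another zinc transporter, ran from 46.1 to 311 CPM (median 129) in Cd34-class and from 0.853 to 167 CPM (median 32.3) in Klf1-class cells. It was highest in cells 9 and 34, at 1637 and 750.4 CPM. Over the 49 cells its level had a Spearman correlation with total reads of -0.63, the lowest among the members, with -0.47 over the 13 Cd34-class and -0.45 over the 33 Klf1-class cells, and CPM shares the total reads with the depth it was set against. It overlaps Mettl17 on the same strand over 151 exon bases (4.38%). The copper importer Slc31a1 had 84.5 ± 147 CPM, of which cell 34, outside both classes, held 21.8% at 903 CPM. Without cell 34 the mean of Slc31a1 was 67.4 CPM. The zinc exporters of the Golgi and secretory vesicles Slc30a5 and Slc30a7 had 84.4 ± 99.5 CPM and 52.03 ± 87.7 CPM.

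The 13 members of the nucleoside, vitamin and cofactor class summed to 977 ± 429 CPM. Slc48a1, which moves haem out of endolysosomes, had 308 ± 207 CPM and was found at 10 CPM or more in 13 of 13 Cd34-class and 32 of 33 Klf1-class cells. The folate carrier Slc19a1 had 123 ± 177 CPM in Cd34-class and 242 ± 173 CPM in Klf1-class cells. Its log2 ratio of 0.97 lay just under 2-fold, and it was 1.39 without cell 7. The nucleoside transporter Slc29a1 had a log2 ratio of 1.01, just past 2-fold, which left-out single cells moved between 0.89 and 1.36, so its call turns on 1 cell. The purine nucleobase transporter Slc43a3 had 19.8 ± 33.3 CPM in Cd34-class and 97.9 ± 109 CPM in Klf1-class cells, a log2 ratio of 2.25.

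The 15 members of the nucleotide sugar class summed to 1047 ± 461 CPM. Slc35a4 had 181 ± 267 CPM in Cd34-class and 448 ± 286 CPM in Klf1-class cells, and its Cd34-class median was 31.1 CPM against 419 CPM. Slc35b2, which carries the sulfate donor PAPS into the Golgi, had 139.8 ± 147 CPM and a log2 ratio of 0.66, which was 1.09 without cell 7. Slc35c2, linked to fucosylation, ran the other way, with 239.9 ± 239 CPM in Cd34-class and 60.3 ± 72.6 CPM in Klf1-class cells, and the GDP-fucose transporter Slc35c1 had 143 ± 172 CPM and 77.3 ± 87.4 CPM, which is less than 2-fold.

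The 14 members for organic ions and lipids summed to 807 ± 397 CPM. The urea transporter Slc14a1, which carries the Kidd blood group in humans, was at 10 CPM or more in 10 of 13 Cd34-class and 32 of 33 Klf1-class cells, with a log2 ratio of 0.26. The lactate and pyruvate transporter Slc16a1 had 146 ± 133 CPM, and the organic cation transporter Slc22a3 had 94.2 ± 127 CPM, both less than 2-fold apart between the classes. The 14 inorganic ion members summed to 541 ± 250.4 CPM. The scaffold Slc9a3r1 had 168 ± 151 CPM in Cd34-class and 71.4 ± 90.3 CPM in Klf1-class cells, and the Golgi sodium and proton exchanger Slc9a8 had a log2 ratio of -1.13, which was -0.72 without cell 16 and so under 2-fold. The 6 sugar and polyol members summed to 292 ± 210.4 CPM. Slc50a1, the mammalian member of the SWEET sugar transporters, had 160.3 ± 145 CPM in Cd34-class and 58.6 ± 57.3 CPM in Klf1-class cells. The intracellular hexose transporter Slc2a8 had a log2 ratio of 0.71, which was 2.91 without cell 51.

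The next question was which members differed between the classes of cells. A member was called at least 2-fold apart from the ratio of class means with 1 CPM added to each, which understates the change of low genes. Of the 132 members, 35 (26.5%) were at least 2-fold higher in Klf1-class cells, where the same call took 19.7% of the 8625 protein-coding genes with a mean of 10 CPM or more. In Cd34-class cells 30 members (22.7%) were at least 2-fold higher, against 21.9% of all those genes. The median log2 ratio of the members was 0.051, beside -0.0036 over all those genes. The share towards the Cd34-class lay near the background, and the share towards the Klf1-class somewhat above it. With size factors in place of total reads, 31 and 37 members were called, against 16.2% and 26.6% of all those genes. Nothing particular to the members is read from these counts. Without cells 9, 13, 23 and 34 the counts were 36 and 30. No member separated the classes completely: for all 132 the range in Cd34-class cells overlapped the range in Klf1-class cells. The same count over all genes is not given here, so nothing particular to the members is read from it.

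The calls were also counted by substrate class, and each count is to be read against the 19.7% and 21.9% of all genes given above. Among mitochondrial carriers 10 were at least 2-fold higher in Klf1-class and 2 in Cd34-class cells, and among nucleoside, vitamin and cofactor transporters 6 and 2. Metal transporters had 3 and 7, amino acid transporters 2 and 6 and organic ion and lipid transporters 3 and 6. Inorganic ions had 5 and 2, nucleotide sugars 4 and 3, and sugars 2 and 2. The median log2 ratio by class ran from -0.44 for metals to 0.97 for nucleosides, vitamins and cofactors, with 0.29 for mitochondrial carriers. Several of these counts lie near the background, all are of few genes over 1 sample, and whether the substrate classes differ from each other was not tested.

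**Figure D2:**
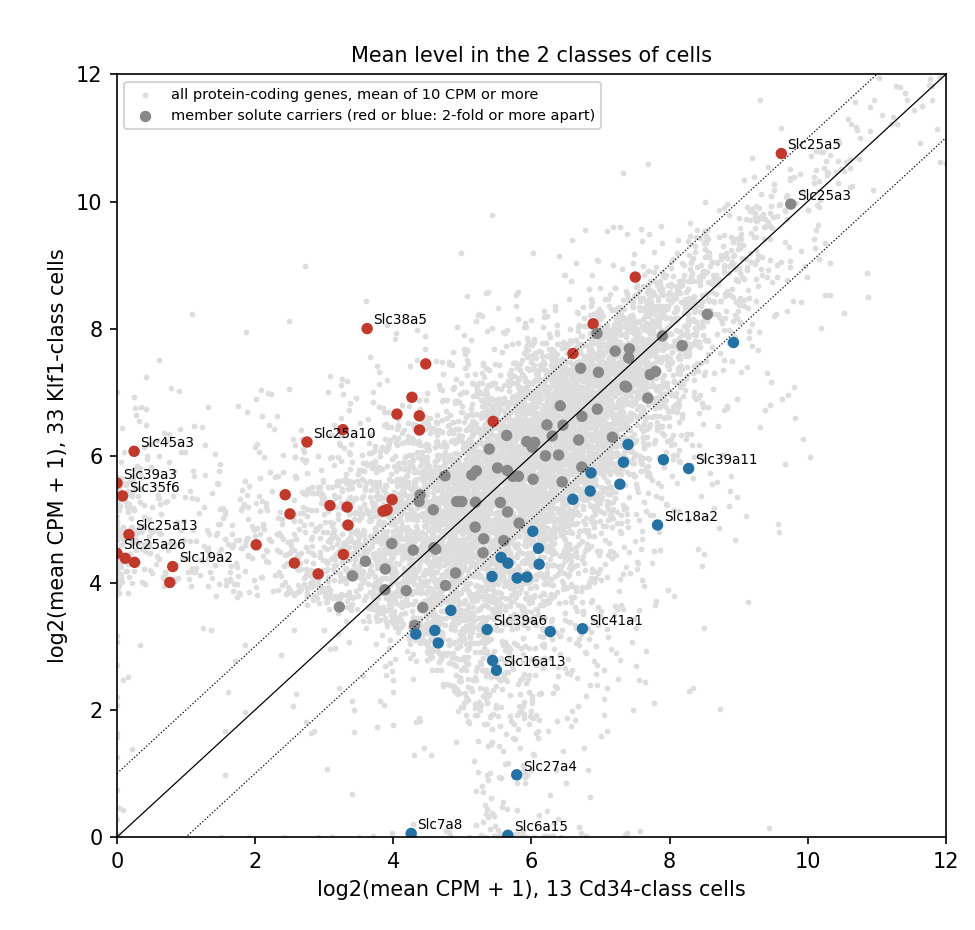
Each point is a gene at log2(mean CPM + 1) in the 13 Cd34-class cells (horizontal) and the 33 Klf1-class cells (vertical), pale for all 8625 protein-coding genes at 10 CPM or more and dark for the 132 members. Red and blue members lie past the dotted 2-fold lines, 35 towards the Klf1-class and 30 towards the Cd34-class; genes above 12 on either axis are not drawn.

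Members were also found in more of the Klf1-class cells. Of the members, 30 reached 10 CPM in at least 50% of Cd34-class cells (22.7%), and 74 in at least 50% of Klf1-class cells (56.1%). The same held for 38.2% and 65.4% of all 8625 genes. A member reached 10 CPM on average in 34.9% of Cd34-class and 54.7% of Klf1-class cells. Over all 8625 genes the shares were 44.1% and 62.7%, so other genes showed a similar gap. With each cell thinned to 200000 reads, which kept 13 and 31 cells and left out 2 of the Klf1-class, the members' shares were 35.9% and 55.5%. A Cd34-class cell had a median of 47 members at 10 CPM or more (range 34 to 65), and a Klf1-class cell 71 (range 51 to 100). The summed level differed less, with 10573 ± 981 CPM in Cd34-class and 11261 ± 1303 CPM in Klf1-class cells. The median coefficient of variation over cells was 2.01 in Cd34-class and 1.30 in Klf1-class cells, beside 1.66 and 1.09 over all genes. A mean over 13 Cd34-class cells therefore often rested on a few cells, and 73 of the 132 members had a Cd34-class median of 0, against 35 in the Klf1-class.

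Because of this, members were also counted that were at least 2-fold higher and reached 10 CPM in a share of cells at least 50 percentage points higher, a call chosen after the values were seen. Towards the Klf1-class 10 members (7.58%) met it, against 7.03% of all genes, and towards the Cd34-class 0 members met it, against 0.812% of all genes. With cells thinned to 200000 reads 8 members met it towards the Klf1-class, and without cells 9, 13, 23 and 34 there were 9. The 10 members were Slc38a5, Slc43a1, Slc25a21, Slc25a38, Slc25a10, Slc25a32, Slc35a3, Slc20a1, Slc39a3 and Slc45a3. Each was also 2-fold higher under all 7 other ways of taking the ratio that changed any value. Those ways reuse the values that picked the 10, so they give no independent support.

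**Figure D3:**
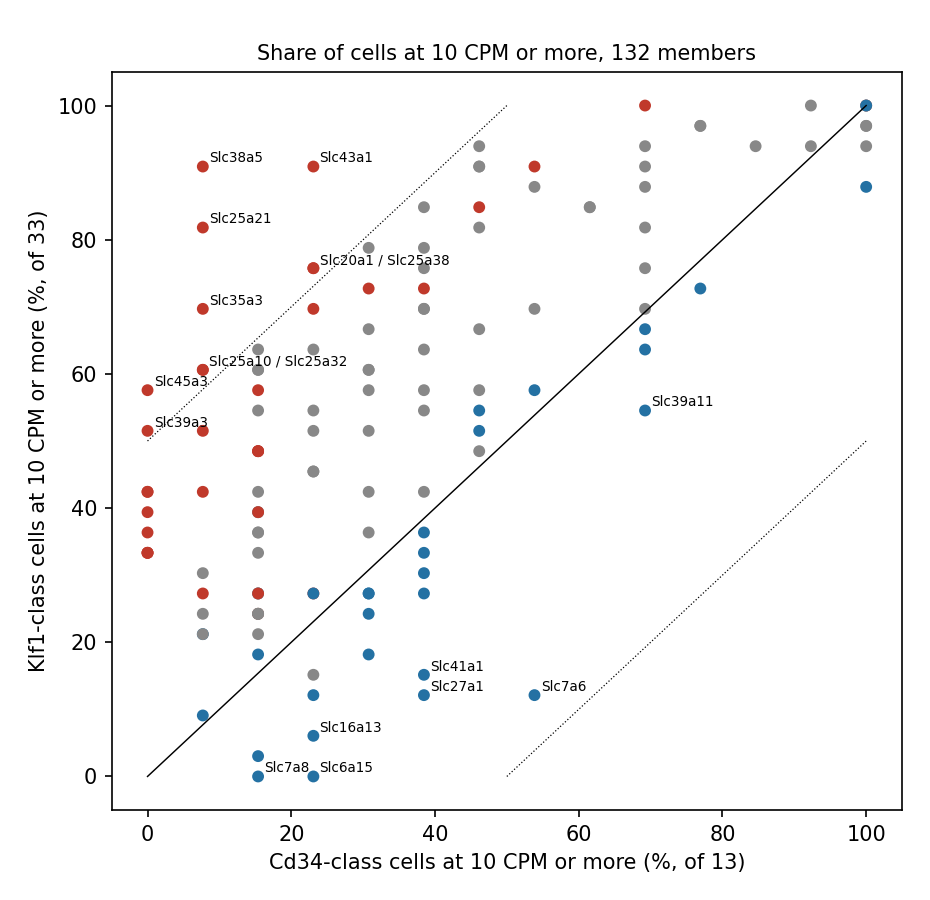
Each point is a member at its share of Cd34-class cells (horizontal, of 13) and of Klf1-class cells (vertical, of 33) with 10 CPM or more, coloured red or blue where it is at least 2-fold higher in Klf1-class or Cd34-class cells and grey otherwise. The 10 members on or above the upper dotted line, which marks a gap of 50 points, are named, with Slc38a5 at 7.69% and 90.9%, and no member lies below the lower one; points with equal shares coincide.

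Of these, Slc38a5 and Slc43a1 bring amino acids into the cell. Slc38a5 (chromosome X, 8271133 to 8280179), which exchanges glutamine, asparagine, serine and histidine, ran from 0 to 136 CPM (median 0) in Cd34-class and from 0 to 567 CPM (median 250.2) in Klf1-class cells. It reached 10 CPM in 1 of 13 Cd34-class cells (exact Clopper-Pearson 95% interval 0.195% to 36.03%) and in 30 of 33 Klf1-class cells (75.7% to 98.1%). The intervals cover counting error only, and reads copied by PCR without molecular identifiers are not independent molecules. The 1 Cd34-class cell was cell 21, and the log2 ratio of 4.38 was 7.05 without cell 21. That cell had 1116 CPM of Cd34 and 197 CPM of Klf1, just under the Klf1 limit of 200 CPM. Slc43a1 (chromosome 2, 84838850 to 84863594), which lets large neutral amino acids such as leucine pass, had 21.2 ± 57.6 CPM in Cd34-class and 173 ± 142 CPM in Klf1-class cells. It reached 10 CPM in 3 of 13 and 30 of 33 cells, and its log2 ratio of 2.97 was 4.74 without cell 16. Cell 2, which held both Cd34 and Klf1, had 8 of the 10 members at 10 CPM or more, with 244 CPM of Slc38a5 and 241 CPM of Slc43a1, but 0.936 CPM of Slc25a32 and 0.134 CPM of Slc39a3.

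The 4 mitochondrial carriers of the 10 serve different steps. Slc25a38 (chromosome 9, 120110374 to 120124504), which imports glycine for haem synthesis, ran from 0 to 105 CPM (median 0) in Cd34-class and from 0 to 429 CPM (median 72.8) in Klf1-class cells and was at 10 CPM in 3 of 13 and 25 of 33 of them, with a log2 ratio of 2.60 (3.46 without cell 51). Slc25a21 (chromosome 12, 56712634 to 57197472), which carries oxodicarboxylates such as 2-oxoadipate, ran from 0 to 110.3 CPM (median 0) and from 0 to 275 CPM (median 89.4). As with Slc38a5, cell 21 was the only Cd34-class cell at 10 CPM or more, and the log2 ratio of 3.14 was 6.17 without cell 21. The level of Slc25a21 had a Spearman correlation with total reads of 0.56 over the 49 cells, the highest among the members, and of 0.28 within the Klf1-class, and with cells thinned it was at 10 CPM in 1 of 13 and 26 of 31 cells. Slc25a10 (chromosome 11, 120491840 to 120499187), the dicarboxylate carrier for malate and succinate, had 5.73 ± 19.97 CPM and 73.3 ± 105 CPM, and its log2 ratio of 3.46 was 5.96 without cell 32. Slc25a32 (chromosome 15, 39091231 to 39112716), which brings folate or FAD into mitochondria, had 9.08 ± 28.7 CPM and 35.5 ± 40.2 CPM, and its log2 ratio of 1.86 was 4.10 without cell 26.

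The other 4 have separate substrates. Slc20a1 (chromosome 2, 129198764 to 129211616), a sodium-coupled phosphate importer, had 18.3 ± 45.04 CPM in Cd34-class and 120.0 ± 111 CPM in Klf1-class cells, and its log2 ratio of 2.65 was 4.12 without cell 52. Slc35a3 (chromosome 3, 116669470 to 116712831), which carries UDP-N-acetylglucosamine into the Golgi, had 4.67 ± 15.9 CPM and 32.9 ± 37.03 CPM, and its log2 ratio of 2.58 was 4.74 without cell 47. Slc39a3 (chromosome 10, 81028538 to 81037426), a zinc importer, had no read in any of the 13 Cd34-class cells, which allows up to 23.1% of such cells to hold one by the rule of 3 counts and up to 24.7% by the exact Clopper-Pearson interval, and ran from 0 to 275 CPM (median 14.7) in Klf1-class cells. Set against a floor of 3 counts per library, it was at least 13.99-fold higher in Klf1-class cells. That bound covers counting in the 13 sequenced Cd34-class cells only and leaves out the spread between cells. Slc45a3 (chromosome 1, 131962967 to 131982969), a proton-coupled sugar transporter, ran from 0 to 1.31 CPM (median 0) and from 0 to 401 CPM (median 21.2), and 19 of 33 Klf1-class cells held it at 10 CPM or more. Of its exon bases, 13.5% also lie in the transcript Gm29103 on the same strand, which has no entry in the deposited counts.

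**Figure D4:**
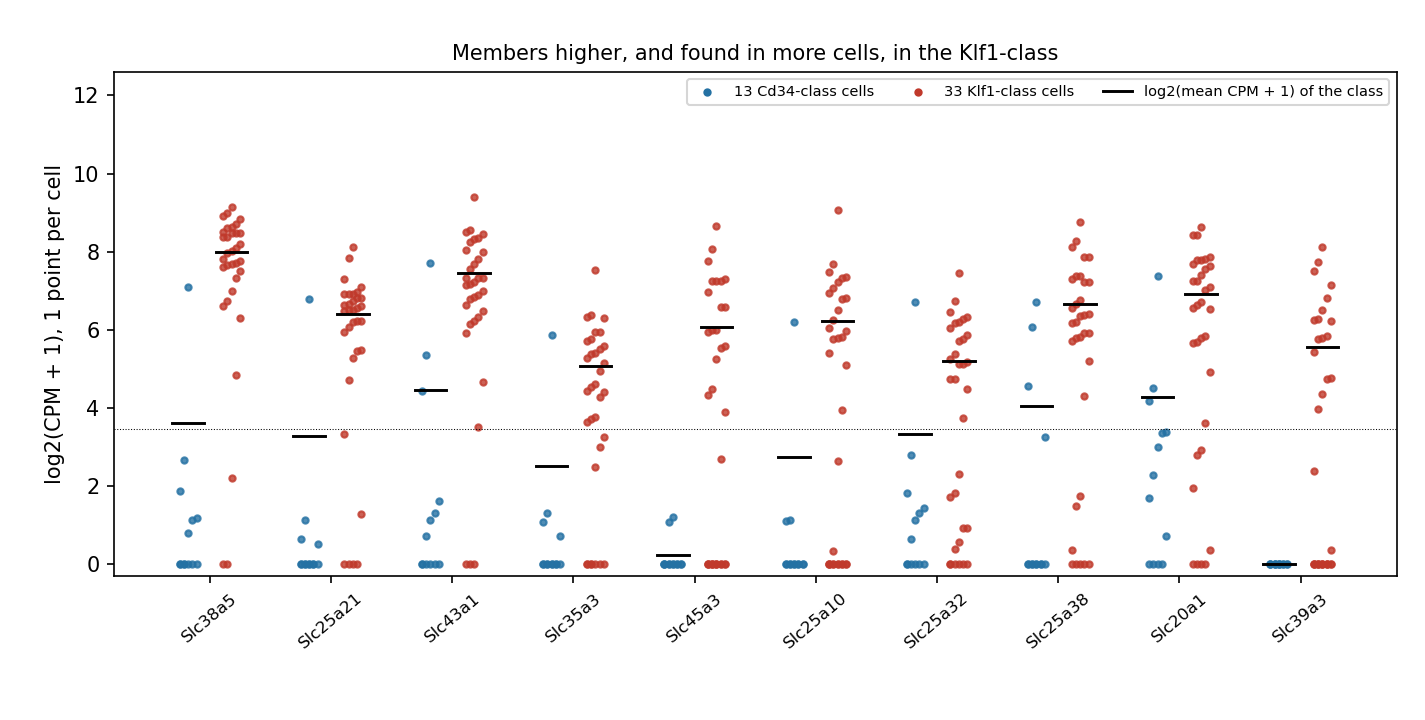
Each point is a cell at its log2(CPM + 1) of 1 of the 10 members that were at least 2-fold higher and in at least 50 points more cells in the Klf1-class, blue for 13 Cd34-class and red for 33 Klf1-class cells, with a bar at log2(class mean + 1) and a dotted line at 10 CPM. Most blue points lie below the dotted line, with 1 to 3 above it in 8 members and none in Slc45a3 and Slc39a3.

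Promoter sequences are shown for 4 of the 10 as examples with several, few and no matches to a motif. They are the 250 bases before the start of the gene in RefSeq (GRCm38.p6), which matched 101 of the 132 members, written 5′ to 3′ on the gene's strand in lower case. Capitals mark matches on either strand to CCNCNCCC, the core of sites bound by KLF factors, where matches may overlap. The second motif, AGATAA, was searched on both strands too. It is a binding sequence of erythroid zinc finger factors, and none of the 4 windows holds it. Slc45a3 (chr1:131962665-131962914, plus strand) has 5 matches to CCNCNCCC, Slc25a38 (chr9:120110132-120110381, plus strand) has 2, Slc25a10 (chr11:120491587-120491836, plus strand) has 1 and Slc25a21 (chr12:57197473-57197722, minus strand) has 0.
Slc45a3: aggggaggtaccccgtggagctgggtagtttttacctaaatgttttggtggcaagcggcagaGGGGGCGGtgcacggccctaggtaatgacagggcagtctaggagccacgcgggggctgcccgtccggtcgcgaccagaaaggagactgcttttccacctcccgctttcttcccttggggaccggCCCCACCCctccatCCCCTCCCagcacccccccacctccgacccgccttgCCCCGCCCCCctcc
Slc25a38: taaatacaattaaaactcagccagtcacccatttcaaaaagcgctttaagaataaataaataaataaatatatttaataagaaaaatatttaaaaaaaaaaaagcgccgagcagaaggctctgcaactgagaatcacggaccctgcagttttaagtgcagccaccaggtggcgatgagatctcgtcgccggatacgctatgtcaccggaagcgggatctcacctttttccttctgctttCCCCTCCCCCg
Slc25a10: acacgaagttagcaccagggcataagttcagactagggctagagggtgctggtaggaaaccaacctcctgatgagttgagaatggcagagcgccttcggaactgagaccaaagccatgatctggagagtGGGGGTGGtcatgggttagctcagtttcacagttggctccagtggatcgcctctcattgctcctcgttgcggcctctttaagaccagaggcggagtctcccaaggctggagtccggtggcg
Slc25a21: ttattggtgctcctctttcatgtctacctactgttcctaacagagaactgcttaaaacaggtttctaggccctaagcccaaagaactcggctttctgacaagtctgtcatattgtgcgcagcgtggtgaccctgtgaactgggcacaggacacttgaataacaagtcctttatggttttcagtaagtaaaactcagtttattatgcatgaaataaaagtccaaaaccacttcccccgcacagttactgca
CCNCNCCC was found in 53.7% of 16417 protein-coding promoters of this length, in 69.3% of the 101 member promoters and in 7 of the 9 matched among the 10. It was in 58.6% of the 29 matched members at least 2-fold higher in Klf1-class cells and in 76.9% of the 26 matched on the Cd34 side. AGATAA was found in 8.87% of all promoters, 6.93% of the members' and none of the 9. A match is a run of letters in this window and says nothing of binding.

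Further members with a large ratio towards the Klf1-class were found in fewer of its cells. Slc35f6 had 1 read in the Cd34-class and 40.3 ± 56.7 CPM in Klf1-class cells, a ratio of pooled reads per total of 691 with a counting interval from 124 to 27292. That interval takes pooled reads as independent and leaves out the spread between cells. Slc25a13, an exchanger of aspartate and glutamate, reached 10 CPM in 0 of 13 Cd34-class and 11 of 33 Klf1-class cells, while its close relative Slc25a12 had a log2 ratio of -0.054 (0.80 without cell 47). Slc25a26, which imports S-adenosylmethionine into mitochondria, had no read in the Cd34-class. Against the same floor it was at least 6.35-fold higher in Klf1-class cells, a bound that also leaves out the spread between cells. Slc25a42 and Slc25a16, carriers linked to coenzyme A, had log2 ratios of 3.24 and 4.27 and were at 10 CPM in 14 of 33 and 12 of 33 Klf1-class cells. The thiamine transporter Slc19a2 had 0.750 ± 1.44 CPM and 18.1 ± 30.5 CPM, and Slc22a23, of the organic ion family, had a log2 ratio of 4.07. None of these 7 was at 10 CPM in any Cd34-class cell. Among ion transporters, the potassium and chloride cotransporter Slc12a4 had a log2 ratio of 2.95 (4.84 without cell 41), the anion exchanger Slc4a2 2.58 (3.47 without cell 52) and the sulfate transporter Slc26a1 2.13 (5.07 without cell 16).

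Towards the Cd34-class the largest ratios came from 2 or 3 cells each. Slc6a15, a transporter of branched-chain amino acids and proline, was found at 340, 211 and 93.4 CPM in cells 32, 52 and 47 and had no read in the other 10 Cd34-class cells. In the 33 Klf1-class cells it had 2 reads, and the ratio of pooled reads per total was 1856, with a counting interval from 512 to 15357. Such intervals take pooled reads as independent and leave out the spread between cells. Slc27a4, a fatty acid transport protein, had 412 and 294 CPM in cells 27 and 41 and no read in the other 11, and its log2 ratio of -4.81 was -3.69 without cell 27. Slc7a8, a further light chain of Slc3a2, had 205 CPM in cell 26, 31.2 CPM in cell 31 and 3 reads in the Klf1-class, a ratio of pooled reads of 287 (96.5 to 1404). Its highest level was in cell 34, at 422 CPM, outside both classes. These 3 members had no read in most cells of either class, which at this depth does not show that they are absent.

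Next in size of ratio or share of cells on that side were the following. The magnesium transporter Slc41a1 was at 10 CPM in 5 of 13 Cd34-class and 5 of 33 Klf1-class cells, with 106 ± 147 CPM and 8.70 ± 25.7 CPM and a log2 ratio of -3.46 (-4.06 without cell 15). Slc27a1, a second fatty acid transport protein, was at 10 CPM in 5 of 13 and 4 of 33, with 76.3 ± 123 CPM and 8.39 ± 27.02 CPM and a log2 ratio of -3.04 (-3.74 without cell 15). Slc18a2, which loads monoamines such as histamine and serotonin into vesicles, had 1132, 721, 662, 263 and 142 CPM in cells 41, 16, 51, 26 and 47 and at most 7.07 CPM in the other 8 Cd34-class cells. In the Klf1-class it reached 504 CPM in cell 15, and the log2 ratio of -2.92 was -3.90 without cell 15. The monocarboxylate family member Slc16a13, at 10 CPM in 3 of 13 Cd34-class and 2 of 33 Klf1-class cells, had a log2 ratio of -2.87. Left-out single cells moved it between -3.99 (without cell 14) and -1.77. Slc7a6 had a log2 ratio of -2.66, which was -3.26 without cell 15. Slc39a11, at a log2 ratio of -2.48, reached 10 CPM in 9 of 13 and 18 of 33 cells, and Slc35c2 in 9 of 13 and 21 of 33. Slc25a24, which exchanges ATP-magnesium for phosphate, had a log2 ratio of -1.85, which was -1.13 without cell 32. The zinc transporter Slc39a6 had one of -2.09, which was -0.91 without cell 27 and so under 2-fold.

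**Figure D5:**
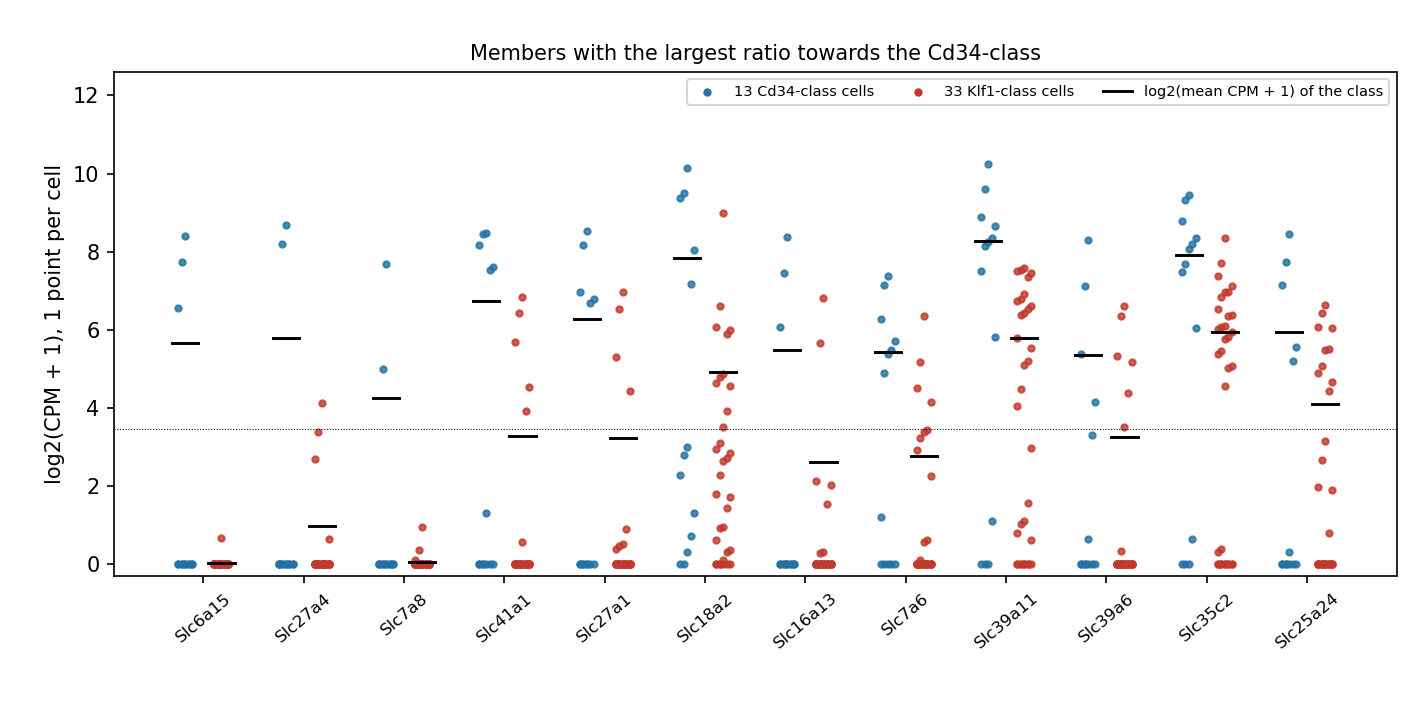
Each point is a cell at its log2(CPM + 1) of the 12 members with the largest ratio towards the Cd34-class, blue for 13 Cd34-class and red for 33 Klf1-class cells, with a bar at log2(class mean + 1) and a dotted line at 10 CPM. In Slc6a15, Slc27a4 and Slc7a8 the bar of the Cd34-class rests on 3, 2 and 2 cells, while Slc39a11 and Slc35c2 have 9 each above the dotted line.

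Other members fill in these classes. Among mitochondrial carriers, the oxoglutarate carrier Slc25a11 had 135 ± 124 CPM and the NAD+ carrier Slc25a51 103 ± 97.01 CPM. The other 9 (Slc25a46, Slc25a36, Slc25a44, Slc25a22, Slc25a20, Slc25a15, Slc25a28, Slc25a25 and Slc25a30) had mean levels from 13.1 to 80.2 CPM, and all 11 were less than 2-fold apart between the classes. They include the glutamate carrier Slc25a22, the carnitine carrier Slc25a20, the ornithine carrier Slc25a15 and the iron carrier Slc25a28. Among amino acid transporters, Slc38a10 had 169 ± 187 CPM, the taurine transporter Slc6a6 79.4 ± 102 CPM, the aromatic amino acid transporter Slc16a10 70.2 ± 76.8 CPM and the cationic amino acid transporter Slc7a1 37.7 ± 57.1 CPM. Slc7a4, the lysosomal peptide and histidine transporter Slc15a4 and the Slc3a2 light chain Slc7a7 were also less than 2-fold apart. Slc38a7, which exports glutamine from lysosomes, and Slc6a13, which carries GABA and taurine, had log2 ratios of -1.35 and -1.27, which were -0.58 without cell 27 and -0.66 without cell 31.

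Among metal transporters, Slc41a3 of the magnesium family had 19.8 ± 46.1 CPM in Cd34-class and 83.7 ± 106 CPM in Klf1-class cells, a log2 ratio of 2.03 (2.91 without cell 7), and the zinc and manganese importer Slc39a8 a log2 ratio of 1.24 (2.38 without cell 52), while the zinc importer Slc39a10 had -1.72 (-1.10 without cell 33). Slc39a9, Slc30a9 and Slc30a6 were less than 2-fold apart. In the vitamin class, the choline transporter family member Slc44a2 had a log2 ratio of -1.41, which was -0.95 without cell 27. The multivitamin transporter Slc5a6 had 1.56 (3.25 without cell 21). The lysosomal nucleoside transporter Slc29a3 had 1.17, which left-out single cells moved between 0.85 and 1.84, so its call turns on 1 cell. The riboflavin transporter Slc52a2 had 50.9 ± 93.02 CPM and was less than 2-fold apart, as were Slc29a2 and Slc44a1. Among ion transporters, Slc12a2, which takes up sodium, potassium and chloride, had a log2 ratio of 1.74 (4.25 without cell 7), and Slc20a2, Slc4a7, Slc12a7 and Slc26a2 lay within 2-fold. Among nucleotide sugar transporters, Slc35b1 had 1.25 (2.37 without cell 20) and Slc35f5 -1.60, the latter -0.74 without cell 41. Slc35b4, the CMP-sialic acid transporter Slc35a1, Slc35e2, Slc35b3, the UDP-galactose transporter Slc35a2 and Slc35g1 lay within 2-fold, at 19.8 to 65.4 CPM. The glucose 6-phosphate transporter of the endoplasmic reticulum, Slc37a4, had a log2 ratio of 1.32 (3.64 without cell 32) and its relative Slc37a1 -1.56, the latter -0.74 without cell 47. Slc10a7 had 1.27 (4.12 without cell 33), and Slc45a4, Slc10a3 and the vesicular nucleotide transporter Slc17a9 lay within 2-fold.

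How far single cells carried the calls was counted for all members. With each cell left out in turn, 32 of the 35 members kept a 2-fold higher mean in the Klf1-class every time, and 15 of the 30 in the Cd34-class. Through the 7 alternative ways of taking the ratio that changed any value, 19 and 7 members stayed at least 2-fold apart. The same counts over all genes are not given here, so these counts describe the members only. The 7 on the Cd34 side were Slc38a6, Slc7a6, Slc35c2, Slc39a2, Slc39a11, Slc50a1 and Slc9a3r1. Leaving out cell 51 took Slc38a6 to -0.95, just under 2-fold. In 3 of the called members 1 cell turned the direction: Slc39a13 went from -1.33 to 1.38 without cell 33, Slc35e1 from -1.16 to 4.40 without cell 7, and Slc22a21 from -1.13 to 3.04 without cell 16. Slc25a45 went from -1.21 to -0.018 without cell 27 and Slc28a2, a nucleoside transporter, from -1.35 to -0.13 without cell 16. The carnitine transporter Slc22a5 went from -1.82 to -0.48 without cell 33. Of the 67 members less than 2-fold apart, 27 were at least 2-fold higher in Klf1-class and 10 in Cd34-class cells once some 1 cell was left out, 3 of them in both. Among them, Slc17a9 went from 0.74 to 4.27 without cell 7, Slc25a30 from 0.011 to 3.86 without cell 16, Slc30a9 from 0.91 to 3.38 without cell 26 and Slc7a7 from -0.82 to 1.43 without cell 16. Means over 13 cells with few of them high thus set many of these ratios. Where a ratio is given without a named cell, that cell moved it most, and other cells can move it the other way.

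Members known to work together were compared cell by cell, as a description. Slc3a2 and its light chain Slc7a5 both reached 10 CPM in 37 of 49 cells, with a Spearman correlation of 0.27 over all cells and 0.32 over the 33 Klf1-class cells. Slc1a5 and Slc7a5, whose products act in series on glutamine and leucine, had 0.42 and 0.43. Slc38a5 and Slc43a1 had 0.43 over all cells and 0.05 within the Klf1-class, a value near 0. Slc16a1 and Bsg, the chaperone that takes it to the membrane, had 0.17 and 0.16, which is too weak in sparse counts to be read. All such values share library depth. Within the Klf1-class, the 74 members found in at least 50% of cells had Spearman correlations with the summed mitosis genes of at most 0.42 (Slc7a5), with a median of -0.012.

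Of the 132 members, 47 share exon bases with another annotated gene, 15 of them with a protein-coding gene that reached 10 CPM, and in 5 a single gene covers at least 20% of the exon bases. Among them are Slc39a7, Slc33a1, Slc25a35 and Slc16a6. The strand setting of the counting is not given in the sources used here, so reads of overlapping genes cannot be told apart and these levels are uncertain.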

How the data were processed

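Single-cell Smart-seq2 libraries of 52 cells in 1 labelled group were used. The authors deposited expected counts per gene, estimated from their reads by a quantifier, for 28786 gene entries, and 4.23% of all values were not whole. The submitters' processing notes name Trim Galore 0.5.0 for trimming, Salmon 0.03.1 (version as written there) for quantification, and the GRCm38 build. Neither the transcript set nor the strand setting is given in the sources used here.

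Counts were rounded to whole numbers and scaled to CPM in Python 3.11.15 (pandas 2.3.3, numpy 2.4.6, scipy 1.17.1). Symbols and gene positions came from GENCODE release M21, which matched 27728 entries (96.3%), and promoters from RefSeq. Cells were kept by the filter given above, and 3 were left out; no doublet caller was run. Each library is 1 well, so no cell barcodes are shared. Members, gene lists and cell classes were chosen with earlier results of these data known. The median over cells of total reads was 2187579, and depth limits low levels. Ratios used class means plus 1 CPM, with 2-fold as the call and no p-value. The code was tested on simulated data. Alternatives were other scaling, thinning, medians, cell filters, level limits and leaving out single cells.

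Genes were named by a rule: the 3 highest by mean CPM (not corrected for length) in each substrate class, up to 12 in each direction by ratio, the 5 highest per kb, the 3 lowest and 3 highest in variation, and the neighbours of the limit. Other names, among them those found in more cells, those that hang on 1 cell, known partners and class members cited for their role, were chosen after their values were seen. A few genes of the lists are counted but not reported by name here.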

Additional observations from a re-analysis of the deposited data

Results flagged for a closer look

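The 3 cells that the filter left out also held reads of the members, although no comparison used them. The members summed to 11474 CPM in cell 5, 11766 CPM in cell 10 and 11375 CPM in cell 12, which lies within the 7752 to 14281 CPM of the kept cells other than 9 and 34. Those sums rest on 3525, 467 and 369 reads of the members, in cells with 307220, 39692 and 32439 reads in all.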

How the results depend on the processing

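The number of members, the 2-fold counts and the summed level of each substrate class stayed near their reported values in 94 of the 103 planned values outside leave-one-out. The sums use neither the Cd34 and Klf1 limits nor the ratio, so changes to those alone could not move them. The 94 are therefore no measure of stability. The median log2 ratio of 0.051 is small, and its sign turned with size factors (-0.11), a mean minimum of 5 CPM (-0.024) and thinning to 200000 reads (-0.0021). Size factors moved the median of all genes to -0.21 and gave 31 and 37 members towards the Klf1-class and Cd34-class. With medians over cells in place of means, 60 genes reached 10 CPM, 67 members were 2-fold higher in Klf1-class and 9 in Cd34-class cells, and the median was 1.05. Without the highest cell of each gene in each class, 60 members were 2-fold higher in Klf1-class cells and the median was 0.70. Shares of all genes with medians, or without the highest cells, are not given here. A median of 0 was found for 73 members in the Cd34-class and for 35 in the Klf1-class. A lean particular to the members is therefore not read from the counts with medians or without the highest cells. Leaving out each cell in turn gave 129 to 133 members, 33 to 42 and 27 to 32 calls, and medians from 0.0067 to 0.19, the last without cell 7. The Cd34 and Klf1 limits of 50 and 400 CPM kept the same cells, so they test nothing. Shallow cells and 13 Cd34-class cells limit all levels near 10 CPM. No paired analysis was possible because there is 1 group.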

Other observations

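Genes that serve the carriers were set beside them from lists chosen with earlier results of these data known. Of 16 genes for import of carriers into mitochondria, outer membrane channels and carrier partners, all 16 reached 10 CPM, 3 were at least 2-fold higher in Klf1-class and 1 in Cd34-class cells (19.7% and 21.9% of all genes at that level were), and the median log2 ratio was 0.62. The 3 were Timm10, a chaperone that escorts carriers between the membranes, with 18.6 ± 38.03 CPM in Cd34-class and 89.9 ± 58.7 CPM in Klf1-class cells, Timm22, the pore that inserts them, with a log2 ratio of 1.14, and Timm44 with 1.01. Emb, a chaperone of monocarboxylate transporters, had 163 ± 264 CPM in Cd34-class and 0.0213 ± 0.0704 CPM in Klf1-class cells, at 10 CPM in 6 of 13 and 0 of 33. Its relative Bsg had 418 ± 259 CPM and 691 ± 227 CPM.

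Of 22 ABC transporters, which use ATP to move their substrates, 16 reached 10 CPM, 5 were at least 2-fold higher in Klf1-class and 4 in Cd34-class cells. Beside the 19.7% and 21.9% of all genes, nothing particular to this list is read from these counts. Abcb6, a member linked to porphyrin handling, was at 10 CPM in 17 of 33 Klf1-class cells and in none of 13 Cd34-class cells. Abcb4, a phospholipid exporter, had 29.5 ± 89.5 CPM and 259.9 ± 164 CPM, while Abcg1, a sterol exporter, had 124 ± 163 CPM and 11.3 ± 28.5 CPM. Of 14 genes of the ATF4 stress response and amino acid synthesis, 10 reached 10 CPM and 3 were at least 2-fold higher in Klf1-class cells, none in Cd34-class, counts too small to set apart from the same background. The 3 were Asns, which makes asparagine, with 74.2 ± 165 CPM and 294 ± 269 CPM, Mthfd2 of mitochondrial folate metabolism with 0.123 ± 0.366 CPM and 36.7 ± 36.5 CPM, and Sesn2 with a log2 ratio of 2.09. Atf4 itself had 284 ± 244 CPM and 154 ± 101 CPM. Chac1 and Trib3 had no read in the kept cells.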
